A study of Mus musculus with 21 samples.

Results

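The sodium-potassium ATPase genes described here are 6 of the 52550 genes in the count table: 3 beta subunits (Atp1b1, Atp1b2 and Atp1b3) and 3 small regulatory proteins of the FXYD family (Fxyd2, Fxyd6 and Fxyd7). They were chosen by name, with symbols matched to the Ensembl identifiers of the table, and the rule uses no measured value, although the set was taken up with earlier results of these data known. The genes of the catalytic alpha subunit were not analysed here.

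Bulk RNA-Seq was carried out on 21 mouse libraries in 7 groups of 3 replicates, on the C57BL/6 strain. Spiral ganglion neurons (SGNs), the neurons that carry sound signals from the cochlea to the brain, were picked by hand at 1 embryonic age (E15.5) and the postnatal ages P1, P8, P14 and P30 from ShhCre/+; Rosa26-CAG-loxp-stop-loxp-tdTomato/+ mice, with 69 to 195 cells per library. Hair cells (HCs) at P12 came from both cochlear and vestibular organs of Atoh1-CreER+ mice given tamoxifen just after birth, with about 1200 cells per library. Glial cells at P8 were picked from the dissected SGN area of vGlut3-iCreER/+ mice given tamoxifen in the first days after birth, with 86 to 125 cells per library. All 21 libraries carried the same Cre-activated tdTomato reporter. The vGlut3-iCreER driver also labels inner HCs, which were removed by dissection, and the HC samples mixed 2 kinds of sensory organ. Cre driver and tamoxifen treatment went together with cell type and cannot be told apart from it in comparisons between cell types. The same holds for age, except between P8 SGNs and P8 glia, and for the larger number of cells in HC libraries. The labels number the replicates but do not say whether they came from separate animals, so p-values measure only the spread between these libraries.

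The sodium-potassium ATPase moves sodium out of the cell and potassium in, and so restores the gradients that action potentials and sensory currents run down. Its alpha subunit carries out catalysis and ion transport. The beta subunit, a glycoprotein that crosses the membrane a single time, is needed to fold the enzyme and bring it to the cell surface. FXYD proteins attach to the assembled pump and adjust its affinity for ions, and different tissues use different members of the family. In the inner ear the pump is known for its part in potassium secretion by the stria vascularis, and neurons that fire at high rates depend on it.

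Total counts ranged from 10368240 to 37287489 per library. A count of 3, taken here as the floor of detection, corresponded to between 0.0805 and 0.289 CPM (counts scaled to the library total). Levels are given as TPM (length-scaled transcript abundance), computed from the deposited counts and gene lengths, while fold changes and tests are on the log2 CPM scale. These 2 scales do not always put replicates in the same order, since TPM also depends on the lengths of the other genes counted. The summed TPM of 8 SGN markers was 716 to 7778 in SGN libraries, 264 to 299 in HCs and 34.6 to 321 in glia. The sum of 7 HC markers was 2940 to 3446 in HCs and 15.4 to 244 elsewhere, with its highest SGN value in replicate 1 at P14. The sum of 8 glial markers was 7628 to 10591 in glia. In SGNs this glial sum was 82.0 to 349 at E15.5 and 89.6 to 209 at P1, but 1447, 1421 and 787 in the 3 libraries at P8, 945, 240 and 271 at P14, and 227, 64.4 and 7.41 at P30. Replicate 1 had the highest glial sum at each of P8, P14 and P30, and fits without these libraries are given for the changes that they move. In bulk samples, fewer cells of a type and less RNA per cell cannot be told apart.

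On GRCm38, Atp1b1 lies on chromosome 1 from 164437109 to 164458355 on the minus strand, Atp1b2 on chromosome 11 from 69599736 to 69605942 on the minus strand, and Atp1b3 on chromosome 9 from 96332655 to 96364442 on the minus strand. Fxyd6 spans 45370185 to 45396159 and Fxyd2 spans 45399669 to 45410278 on the plus strand of chromosome 9, so that the genes are neighbours with 3509 bases between them. Fxyd7 lies on chromosome 7 from 31042513 to 31051467 on the minus strand, 31 bases from Fxyd5 and 210 bases from Fxyd1. Atp1b1 shares exonic sequence at its 3′ end with Nme7, which lies on the opposite strand. Reads from the shared part cannot be told apart where strand was not used in counting. Nme7 had between 0.197 and 2.28 TPM in SGN libraries, 11.2 to 14.8 TPM in HCs and 1.55 to 2.18 TPM in glia. None of the other 5 genes overlapped an annotated gene.

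Promoter sequences were found in RefSeq (GRCm38.p6) for 3 of the 6 genes: Atp1b1, Atp1b3 and Fxyd6. The 250 bases before the start of Atp1b1 and of Fxyd6 are shown because the transcripts of these genes moved in opposite directions between E15.5 and P30, and those of Atp1b3 because it had the highest mean level of the 3 beta subunits in glia. Capitals mark the GC box GGGCGG and the CCAAT box CCAAT, searched on both strands, so that CCGCCC and ATTGG are the same motifs read from the other strand. The windows are chr1:164458356-164458605 (minus strand), chr9:96364432-96364681 (minus strand) and chr9:45369935-45370184 (plus strand).
Atp1b1: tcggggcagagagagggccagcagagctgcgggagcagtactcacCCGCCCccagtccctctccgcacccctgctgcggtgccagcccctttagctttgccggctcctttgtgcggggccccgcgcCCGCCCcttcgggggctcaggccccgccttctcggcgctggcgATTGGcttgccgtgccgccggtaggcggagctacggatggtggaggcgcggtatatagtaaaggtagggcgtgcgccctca
Atp1b3: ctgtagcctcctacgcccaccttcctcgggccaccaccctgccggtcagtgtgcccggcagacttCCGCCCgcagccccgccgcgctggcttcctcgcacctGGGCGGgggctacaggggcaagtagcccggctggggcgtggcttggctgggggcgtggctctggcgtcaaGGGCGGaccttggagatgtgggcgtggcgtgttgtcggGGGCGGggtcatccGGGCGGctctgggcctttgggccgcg
Fxyd6: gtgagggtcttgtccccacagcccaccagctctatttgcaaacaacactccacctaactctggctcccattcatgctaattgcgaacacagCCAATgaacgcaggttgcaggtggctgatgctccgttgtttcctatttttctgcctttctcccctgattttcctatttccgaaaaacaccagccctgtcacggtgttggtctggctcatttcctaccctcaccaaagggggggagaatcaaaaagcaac
The Atp1b1 window held 2 GC boxes and 1 CCAAT box, and its GC content was 70.4%. The Atp1b3 window held 5 GC boxes and no CCAAT box, with a GC content of 73.6%, while the window before a further annotated start of Atp1b3 held neither motif. The Fxyd6 window held 1 CCAAT box and no GC box, and its GC content of 50.4% was close to the median of 52.4% over 32851 promoters. Of all these promoters, 32.7% held a GC box and 33.8% a CCAAT box in the same 250 bases. None of the 4 windows held TATAAA, which 12.4% of all promoters did. These matches describe the letters only.

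Across the 7 groups, the 6 genes had different patterns. By group means Atp1b1 was the most abundant of the 6 in SGNs and HCs, although Fxyd7 exceeded it in replicate 2 at E15.5 (70.1 against 57.6 TPM). Its mean level in SGNs was 78.0 TPM at E15.5 and between 1126 and 1476 TPM from P8 onwards. Atp1b2 was highest in HCs, at 94.2 ± 19.6 TPM (SD, n = 3), and Atp1b3 and Fxyd6 were highest in glia, at 118 ± 29.1 and 46.6 ± 6.61 TPM. Fxyd7 was highest in SGNs at P1, at 152 ± 69.4 TPM. Fxyd2 was low in nearly all libraries. The plot of levels by library shows each of them in the 21 libraries.

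**Figure D1:**
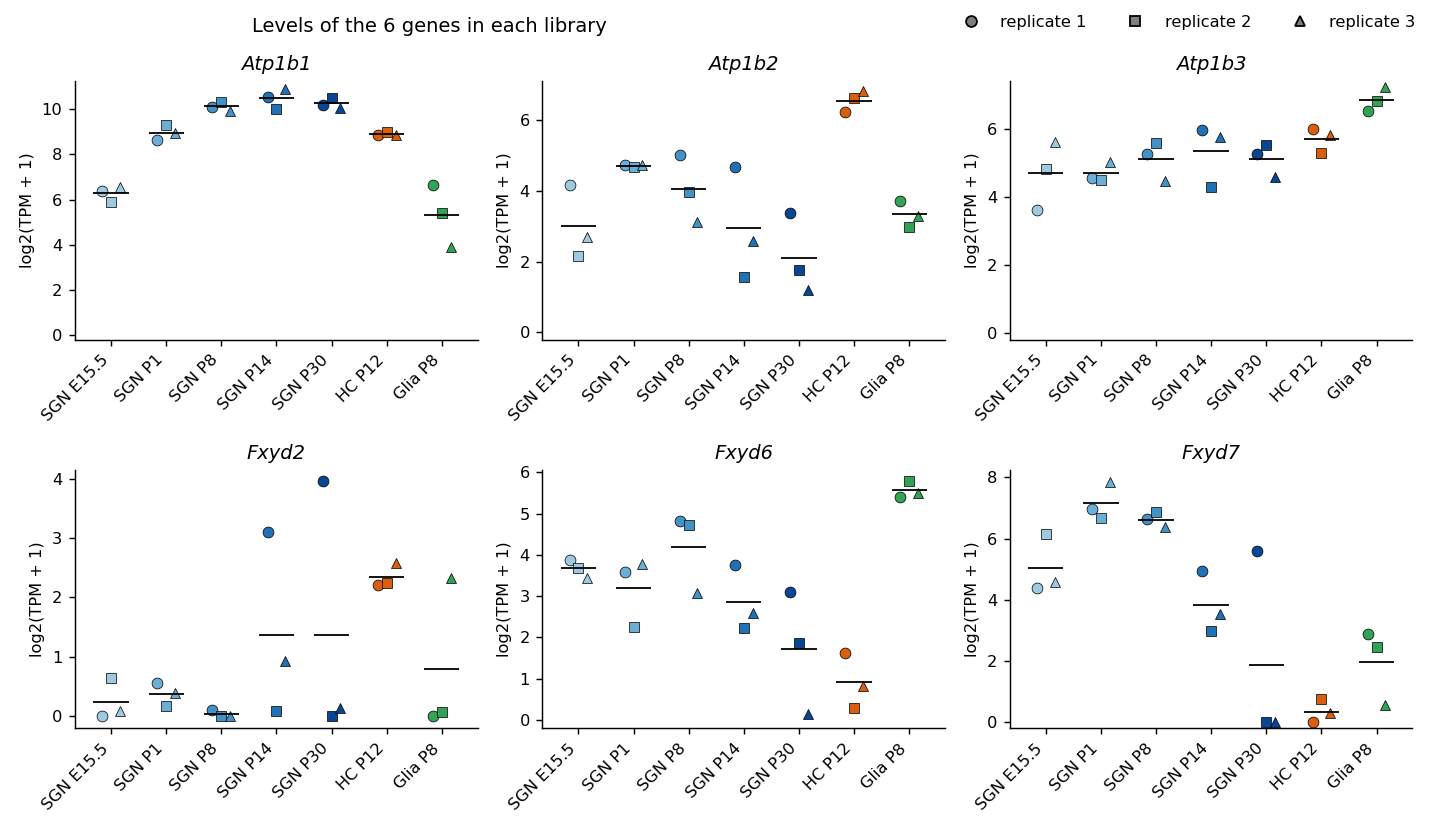
Level of each of the 6 genes as log2(TPM + 1) in each library, with 1 point per library, the marker shape giving the replicate number and the bar the mean of the 3 log2 values. Atp1b1 rises from 78.0 TPM at E15.5 to a mean of at least 1126 TPM in SGNs from P8, Atp1b2 peaks in HCs, Atp1b3 and Fxyd6 peak in glia, and Fxyd7 is at 0 in 2 of the 3 P30 libraries.

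Atp1b1 encodes the most widely expressed beta subunit. In SGNs its level was 83.5, 57.6 and 93.0 TPM in the 3 libraries at E15.5, and 393, 626 and 491 TPM at P1. At P8 it was 1112, 1298 and 967 TPM, at P14 it was 1480, 1039 and 1911 TPM, and at P30 it was 1183, 1430 and 1078 TPM. The E15.5, P1 and P8 libraries thus fell into 3 ranges that did not overlap, while those of P8, P14 and P30 overlapped. By rank of mean TPM among 21819 protein-coding genes, Atp1b1 stood at 347 at E15.5 and 48 at P1, then at 14, 17 and 13 at the 3 later ages.

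Between E15.5 and P1, Atp1b1 rose by a log2 fold change of 2.18 ± 0.34 (SE), which is 4.55-fold (adjusted p = 0.00117, limma-voom with Benjamini-Hochberg adjustment). From P1 to P8 it rose again, by 1.61 ± 0.25 or 3.05-fold (adjusted p = 0.000561, limma-voom). No further change passed the test: the log2 fold change was 0.25 ± 0.23 from P8 to P14 (adjusted p = 0.751, limma-voom) and 0.10 ± 0.23 from P14 to P30 (adjusted p = 0.998, limma-voom). Over the whole interval from E15.5 to P30 the rise was 4.15 ± 0.33, or 17.8-fold (adjusted p = 8.31e-08, limma-voom). This last call held under all 11 alternative settings and with each of the 6 libraries left out. The E15.5 to P1 call was lost only without the filter on low counts (log2 fold change 2.19, adjusted p = 0.345, limma-voom).

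In HCs, Atp1b1 was at 460, 504 and 458 TPM, within the range of SGNs at P1. These values were above all SGN libraries at E15.5 and below all SGN libraries from P8 onwards. In CPM the HC libraries, at 521 to 581, lay below those of P1 SGNs, at 648 to 1204. In glia it was at 98.7, 42.0 and 13.9 TPM, a wide spread that overlapped with SGNs at E15.5. The summed SGN markers fell in the same order over these glial libraries, at 321, 55.1 and 34.6 TPM, and their part in the Atp1b1 values was not tested. The mean over the 5 SGN ages was 3.06-fold above HCs (log2 fold change 1.61 ± 0.33, adjusted p = 0.000275, limma-voom), under the 4-fold needed for a call between cell types. Against glia the SGN mean was 10.4-fold higher (3.37 ± 0.56, adjusted p = 4.68e-05, limma-voom), and SGNs at the same age of P8 were also higher (log2 fold change 4.32 ± 0.57, adjusted p = 5.91e-06, limma-voom). The 3 glial libraries set the size of these differences: without replicate 1 of glia the log2 values were 4.18 and 5.14, and without replicate 3 they were 2.79 and 3.74. The calls were lost without the filter (adjusted p = 0.184 for the SGN mean and 0.0799 for P8), and that for the SGN mean also with sample quality weights (adjusted p = 0.0104, limma-voom).

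Atp1b2 encodes the beta subunit first described as an adhesion molecule on glia. Its level in HCs was 73.3, 97.0 and 112 TPM, above every other library of the series. In SGNs it was 16.8, 3.44 and 5.55 TPM at E15.5, and 25.3, 24.6 and 25.6 TPM at P1. At P8 the values were 31.6, 14.7 and 7.76 TPM, at P14 they were 24.7, 1.96 and 4.94 TPM, and at P30 they were 9.33, 2.38 and 1.30 TPM. The P1 libraries lay close together, whereas at P8, P14 and P30 replicate 1 stood above the other 2 each time, as did its glial marker sum. The glial libraries themselves had 12.1, 6.96 and 8.83 TPM, less than SGN replicate 1 at P8 and P14.

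The SGN mean of Atp1b2 was 4.23-fold below HCs (log2 fold change -2.08 ± 0.35, adjusted p = 3.40e-05, limma-voom). Since this is close to the 4-fold limit, the call was lost with edgeR (-1.85), with the replicate block (-1.88) and without replicate 3 of HCs (-1.95). Leaving out replicate 1 of P8, P14 and P30 SGNs together gave -2.63 (adjusted p = 9.10e-08, limma-voom). No change of Atp1b2 between consecutive ages passed the test. The log2 fold change from E15.5 to P1 was 1.49 ± 0.64 (adjusted p = 0.138, limma-voom), which became a call at 1.46 (adjusted p = 0.0210, limma-voom) when replicate 1 of the 3 later ages was left out. Between E15.5 and P30 it was -0.68 ± 0.86 (adjusted p = 0.550, limma-voom), and -1.72 without replicate 1 of the later ages. HCs and glia differed by 1.66 ± 0.55 (adjusted p = 0.0191, limma-voom), which did not pass.

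Atp1b3, a beta subunit found in many tissues, was highest in glia, at 92.5, 112 and 150 TPM, above all other libraries. In HCs it was 63.5, 38.3 and 55.5 TPM. SGN libraries ranged from 11.3 TPM, in replicate 1 at E15.5, to 61.5 TPM, in replicate 1 at P14. The mean of each SGN age lay between 25.3 and 44.6 TPM, and the ranges of neighbouring ages in the order of means overlapped throughout. Values at E15.5 were the most spread, at 11.3, 27.3 and 48.6 TPM.

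Atp1b3 was 4.60-fold lower in the SGN mean than in glia (log2 fold change -2.20 ± 0.21, adjusted p = 4.28e-08, limma-voom) and 4.13-fold lower in P8 SGNs than in P8 glia (-2.05 ± 0.29, adjusted p = 1.29e-05, limma-voom). HCs were 7.02-fold lower than glia (-2.81 ± 0.35, adjusted p = 2.31e-06, limma-voom). The P8 difference dropped just under 4-fold in 5 of the settings tried, with log2 values from -1.997 to -1.84 and adjusted p-values of at most 0.00231 (limma-voom), and the difference from the SGN mean did so without replicate 3 of glia. No change between SGN ages passed the test, with 0.53 ± 0.35 from E15.5 to P30 (adjusted p = 0.225, limma-voom). Without replicate 1 at E15.5 a fall from E15.5 to P1 did pass, at -1.13 (adjusted p = 0.00758, limma-voom), so this library decides whether it is called.

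As shares of the summed TPM of the 3 beta genes, Atp1b1 made up 67.7% ± 6.21 (SD, n = 3) in SGNs at E15.5 and 90.6% ± 2.19 at P1. The share was 95.5% ± 1.48 at P8, 96.5% ± 1.84 at P14 and 96.9% ± 0.803 at P30. Each P1 library was above each E15.5 library, and each P8 library above each P1 library, whereas the ranges at P8, P14 and P30 overlapped. The Atp1b3 share was 24.7% ± 12.7 at E15.5 and 2.74% ± 0.558 at P30. In HCs the shares were 76.4% for Atp1b1, 15.1% for Atp1b2 and 8.50% for Atp1b3, the highest mean Atp1b2 share of any group. In glia Atp1b3 made up 67.3% ± 20.8 and Atp1b1 27.6% ± 20.3, with Atp1b1 shares of 48.5%, 26.1% and 8.05% in the 3 libraries. Summed over the 3 genes, beta transcripts were at 116 ± 29.7 TPM in SGNs at E15.5, 554 ± 116 at P1, 1179 ± 182 at P8, 620 ± 22.1 in HCs and 179 ± 22.0 in glia. The shares were computed per length and carry no test.

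**Figure D2:**
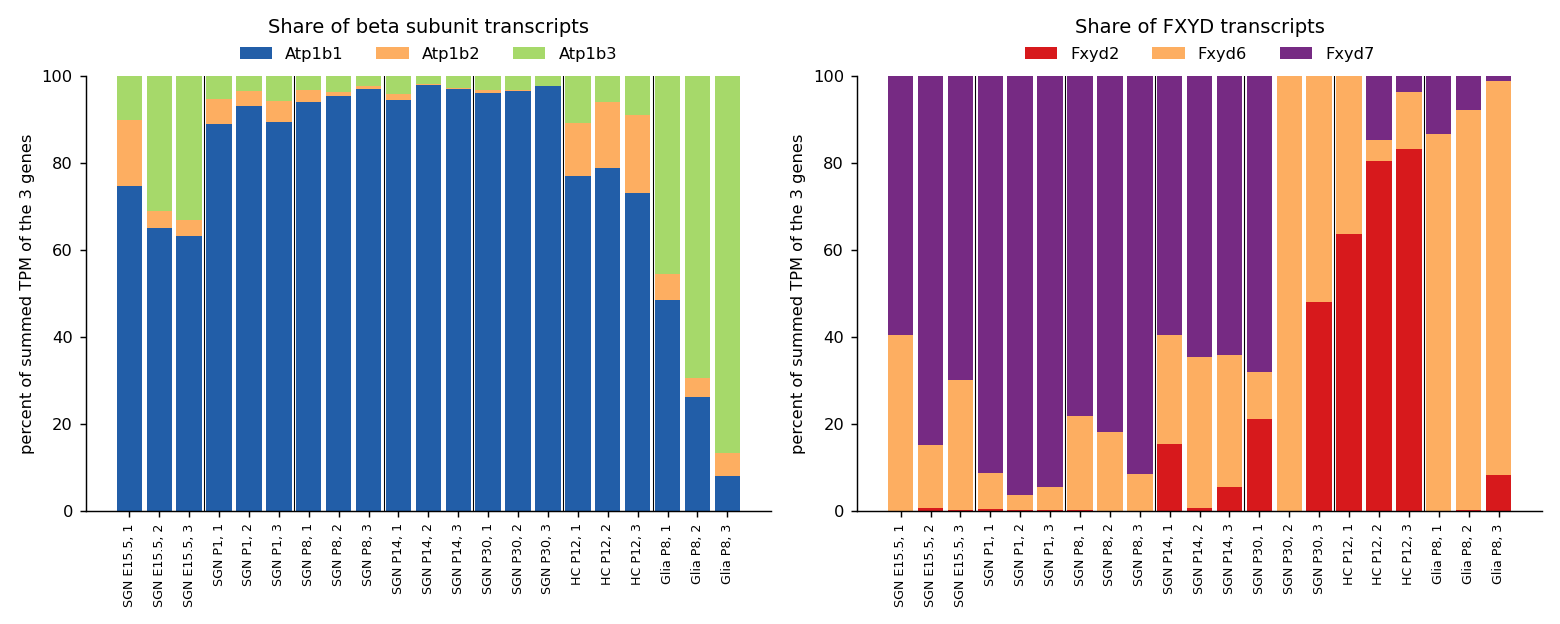
Share of each gene in the summed TPM of the 3 beta genes (left) and of the 3 FXYD genes (right), in percent, with 1 bar per library and vertical lines between groups. Atp1b1 fills 94.1% to 98.1% of each beta bar in SGNs from P8 onwards, while Fxyd7 leads the FXYD bars in SGNs up to P14, Fxyd2 in HCs and Fxyd6 in glia. Other FXYD genes are not part of the bars.

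Fxyd7 is a FXYD protein found mainly in the brain. In SGNs its level was 20.003, 70.1 and 23.1 TPM at E15.5, 123, 102 and 231 TPM at P1, and 98.01, 115 and 81.7 TPM at P8. At P14 it was 29.7, 6.86 and 10.6 TPM. At P30 it was 46.8 TPM in replicate 1, from 828 counts, and no count was found in replicates 2 and 3, whose floor of 3 counts corresponded to 0.147 and 0.120 CPM. All P1 and P8 libraries were above all P14 libraries. In CPM the E15.5 libraries, at 10.4, 58.9 and 10.5, overlapped with those of P1 and P8. Relative to the floor of the P30 libraries without a count, the mean of P1 was at least 370.4-fold higher and that of P14 at least 36.6-fold higher in CPM (floor per library, replicate 2).

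From P8 to P14 the log2 fold change of Fxyd7 was -2.94 ± 0.85, or 7.65-fold lower, which did not pass after adjustment (adjusted p = 0.128, limma-voom). It passed with sample quality weights (-3.01, adjusted p = 0.0300, limma-voom) and in a fit of the P8 and P14 libraries alone (-2.95, adjusted p = 0.0219, limma-voom). From P14 to P30 it was -4.04 ± 1.98 (adjusted p = 0.781, limma-voom), and edgeR gave the opposite sign (0.51). Single P30 libraries set its size: without replicate 1 it was -7.83, without replicate 2 it was -2.23 and without replicate 3 it was -2.17, while leaving out replicate 1 of P8, P14 and P30 together gave -7.42, and none of these passed. Between E15.5 and P30 the fitted change was -5.51 ± 1.89 (adjusted p = 0.0283, limma-voom). That call rested on the pair of P30 libraries without a count: without replicate 2 the value was -3.74 (adjusted p = 0.135, limma-voom), without replicate 3 it was -3.68 (adjusted p = 0.146, limma-voom), and without replicate 1 it was -9.33 (adjusted p = 0.00567, limma-voom). With edgeR it was -1.39 (adjusted p = 0.422, edgeR). The fitted size of a change against libraries at 0 depends on the constant added before logs were taken. From E15.5 to P1 the value was 1.58 ± 0.61 (adjusted p = 0.103, limma-voom), and without replicate 2 at E15.5 it was 2.501 and passed (adjusted p = 0.0377, limma-voom).

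Fxyd7 was at the floor in HCs, with 0, 3 and 1 counts. Pooled over libraries, its CPM in SGNs at P1 was 633 times that in HCs (95% exact Poisson interval on the 4 HC counts, 247 to 2322, counting error only), and the ratio was 66.6 (26.0 to 245) at P14. The SGN mean was above HCs by a fitted log2 fold change of 7.18 ± 1.61 (adjusted p = 0.000784, limma-voom), a call kept in all 11 alternatives and with each of 18 libraries left out, and the value was 6.35 without replicate 1 of the later ages. By single ages, SGNs overlapped with HCs in TPM only at P30, where replicates 2 and 3 had no count. In glia Fxyd7 was at 6.41, 4.50 and 0.459 TPM, below every P8 SGN library and in the same order as the summed SGN markers of these libraries. P8 SGNs were 28.6-fold above glia (4.84 ± 1.32, adjusted p = 0.00564, limma-voom). This call was lost with edgeR (adjusted p = 0.0308), DESeq2 (adjusted p = 0.0160), sample quality weights (adjusted p = 0.0869, limma-voom) and without replicate 3 of SGNs or any of the glial libraries, with log2 values that stayed between 3.84 and 5.58. The mean over the SGN ages did not pass against glia (2.52 ± 1.33, adjusted p = 0.121, limma-voom), and was 1.75 without replicate 1 of the later ages.

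Fxyd6, another FXYD protein of the nervous system, was highest in glia, at 41.6, 54.1 and 44.2 TPM, above every SGN and HC library. In SGNs it was 13.6, 11.95 and 9.93 TPM at E15.5, 11.1, 3.77 and 12.8 TPM at P1, and 27.2, 25.4 and 7.42 TPM at P8. At P14 it was 12.6, 3.68 and 5.04 TPM, and at P30 it was 7.61, 2.67 and 0.116 TPM. All P30 libraries were below all E15.5 libraries. Within P8, P14 and P30, the library with the highest glial marker sum also had the most Fxyd6, and the lowest SGN value of both was in replicate 3 at P30. The part of glial RNA in these values was not tested.

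From E15.5 to P30 Fxyd6 fell by 2.66 ± 0.96 on the log2 scale, or 6.31-fold (adjusted p = 0.0356, limma-voom). The call was lost in 4 of 11 alternatives, among them edgeR (-1.76, adjusted p = 0.104) and DESeq2 (-1.81, adjusted p = 0.0950), and in 4 of the 6 fits without a library. Without replicate 3 at P30 the value was -1.24 (adjusted p = 0.178, limma-voom), and without replicate 1 at P30 it was -4.24 (adjusted p = 0.0197, limma-voom). From P1 to P8 the log2 fold change was 1.51 ± 0.57 (adjusted p = 0.104, limma-voom), and 1.09 without replicate 1 of the later ages (adjusted p = 0.189, limma-voom). Over the same interval, all 8 glial markers had positive values and 5 of them passed, where 4.29% of all genes passed as rises. Their median log2 fold change was 3.07 against -0.01 over all genes. From P8 to P14 the Fxyd6 value was -1.56 ± 0.64 (adjusted p = 0.339, limma-voom), with a median of -1.30 for the glial markers. The median of these markers was -2.43 from E15.5 to P30, the interval of the Fxyd6 call, and -2.86 from P14 to P30. Their part in the Fxyd6 changes was not tested.

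Fxyd6 was 8.32-fold lower in the SGN mean than in glia (log2 fold change -3.06 ± 0.36, adjusted p = 6.81e-07, limma-voom). In P8 SGNs it was 3.23-fold lower (-1.69 ± 0.42, adjusted p = 0.00266, limma-voom), under the 4-fold limit, and without replicate 1 of P8 SGNs it passed at -2.09 (adjusted p = 0.00192, limma-voom). HCs had 2.07, 0.228 and 0.771 TPM, from 42, 6 and 21 counts. They were 201-fold below glia (-7.65 ± 1.21, adjusted p = 3.72e-05, limma-voom) and 24.1-fold below the SGN mean (4.59 ± 1.20, adjusted p = 0.00293, limma-voom). The latter call was lost without replicate 2 of HCs (3.83, adjusted p = 0.0262, limma-voom) or replicate 3 (4.65, adjusted p = 0.0179, limma-voom). Among the SGN ages, only P30 overlapped with HCs in the TPM of Fxyd6.

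Fxyd2 encodes the gamma subunit of the pump, known from the kidney. In SGNs 12 of the 15 libraries had at most 0.572 TPM, and the others were replicates 1 and 3 at P14, at 7.60 and 0.904 TPM, and replicate 1 at P30, at 14.5 TPM from 1478 counts. The other P30 libraries had 0 and 9 counts. HCs had 3.63, 3.75 and 4.97 TPM, a narrow range that lay above 13 of the 15 SGN libraries and below replicate 1 of P14 and P30. Glia had 0, 2 and 152 counts, so that 4.03 TPM in replicate 3 stood apart. Fxyd2 did not reach 1 CPM in all replicates of any SGN age and so was not tested between ages.

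Fxyd2 in the SGN mean differed from HCs by a log2 fold change of -3.39 ± 1.30, which did not pass (adjusted p = 0.0339, limma-voom). Without replicate 1 of P8, P14 and P30 SGNs it passed at -4.65 (adjusted p = 0.00141, limma-voom), without replicate 1 of P30 alone at -4.08 (adjusted p = 0.00412, limma-voom), and with sample quality weights at -3.82 (adjusted p = 0.000851, limma-voom). Against glia the SGN mean differed by 0.13 ± 1.89 (adjusted p = 0.963, limma-voom), a value whose sign changed with the setting, and HCs by 3.52 ± 2.04 (adjusted p = 0.169, limma-voom). In replicate 1 at P14 the summed HC markers were also high, at 244 TPM against 41.6 and 51.8 TPM in the other two, while at P30 they were 44.6 to 63.6 TPM in all 3 libraries. Replicate 1 also stood apart in other marker sums. The sum of 6 connective tissue and vessel markers was 67.2, 2.61 and 8.32 TPM in the P14 libraries and 19.4, 0.448 and 0.0752 TPM in those of P30. The sum of 3 blood markers came to 13.7, 1.98 and 2.13 TPM at P30, and that of 4 markers of the stria vascularis to 13.1, 0.433 and 1.49 TPM at P14 but 0.961, 1.14 and 0.1001 TPM at P30. The blood sum at P14 was 2.41, 0.639 and 5.31 TPM. Replicate 1 at P1 had sums of 129 TPM (connective tissue and vessel), 28.6 TPM (blood) and 7.74 TPM (stria), with Fxyd2 at 0.479 TPM. Replicate 1 at P8 had 63.9, 25.4 and 10.6 TPM, with Fxyd2 at 0.0823 TPM. Whether RNA of other cells contributed was not tested.

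**Figure D3:**
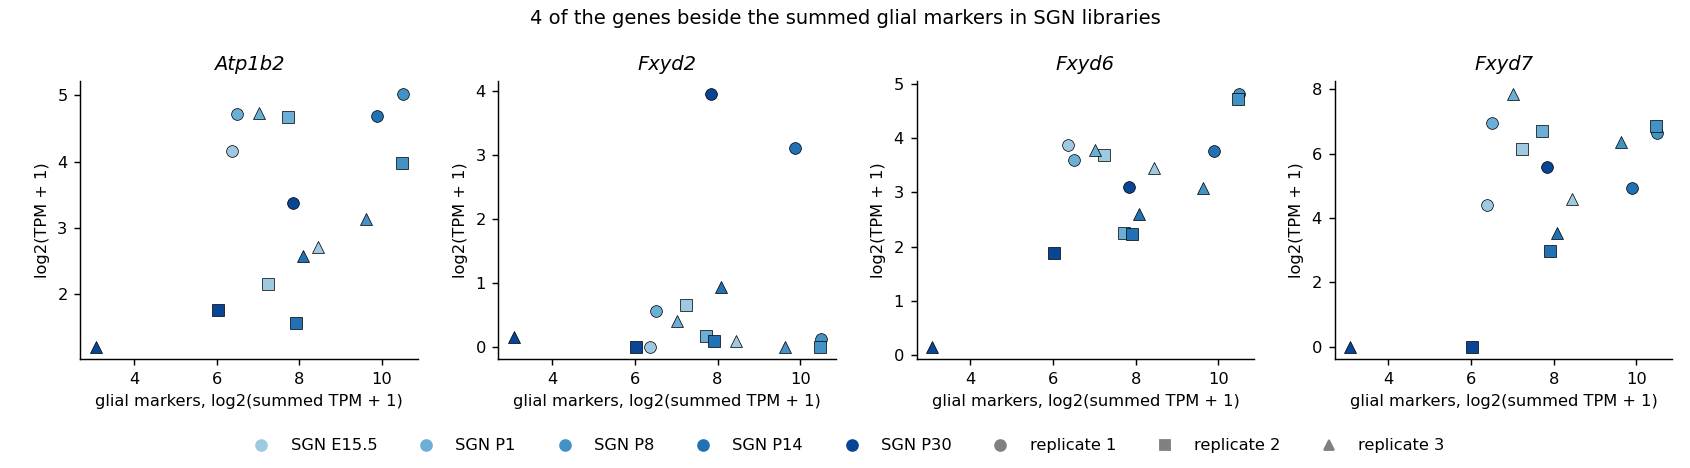
Level of Atp1b2, Fxyd2, Fxyd6 and Fxyd7 as log2(TPM + 1) against the summed TPM of 8 glial markers, also as log2(sum + 1), with 1 point for each of the 15 SGN libraries, coloured by age and shaped by replicate. The P30 replicate 3 library has the lowest glial sum, 7.41 TPM, and the lowest Fxyd6 and Atp1b2, whereas the highest Fxyd2 value, 14.5 TPM, is in P30 replicate 1 at a glial sum of 227 TPM.

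Among the 3 FXYD genes, Fxyd7 made up 71.4% ± 12.8 (SD, n = 3) of the summed TPM in SGNs at E15.5, 94.1% ± 2.48 at P1, 84.0% ± 6.94 at P8 and 62.8% ± 2.80 at P14. In single P14 libraries the share was 59.6%, 64.7% and 64.2%. Fxyd6 made up 89.9% ± 2.91 in glia, and Fxyd2 75.9% ± 10.6 in HCs. The summed level of these 3 genes was 162 ± 73.1 TPM in SGNs at P1, 118 ± 26.6 TPM at P8, 51.8 ± 5.97 TPM in glia and 5.44 ± 0.693 TPM in HCs. At P30 it was 68.9, 2.67 and 0.222 TPM in the 3 libraries, so that shares in replicates 2 and 3 rest on few counts. The ratio of summed beta to summed FXYD transcripts was 2.95 ± 1.72 at E15.5, 3.95 ± 2.14 at P1, 10.1 ± 0.955 at P8 and 83.3 ± 46.0 at P14. In the P14 libraries it was 31.4, 99.9 and 119, each above the ranges of the 3 earlier ages and lowest in replicate 1. At P30 it was 17.8, 553 and 4957, so that replicate 1 lay below every P14 library and the others above. In HCs the ratio was 116 ± 18.9 and in glia 3.51 ± 0.749. Gene length enters these values, since Fxyd7 has 693 bases of merged exons and Fxyd2 and Fxyd6 have 4005 and 4107. Only these 3 FXYD genes entered the sums, shares and ratios. Of those left out, Fxyd4 had a mean of 12.7 TPM in HCs, above the sum of the 3 there. Fxyd1 had a mean of 24.1 TPM in glia.

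Counted by comparison, 1 of the 5 tested genes (Atp1b1) passed 2-fold and adjusted p under 0.05 from E15.5 to P1, where 8.26% of 15113 genes did. In the following interval, P1 to P8, it was again 1 of 5, Atp1b1, against 7.44% of all genes. From P8 to P14 none of the 5 passed in limma-voom, edgeR or DESeq2, against 0.536% of all genes in limma-voom. Fxyd6 and Fxyd7 had an unadjusted p under 0.05 (limma-voom). The share of all genes at this looser threshold was not computed, so it cannot be read beside the 0.536%. From P14 to P30 none passed with any of these tools and none had an unadjusted p under 0.05, against 0.0596% of all genes called in limma-voom. Over the whole interval from E15.5 to P30, 3 of 5 passed (Atp1b1 up, Fxyd6 and Fxyd7 down), against 34.6%. With edgeR, 1 of 5 passed, Atp1b1, which was also the only call with DESeq2. For Fxyd7, DESeq2 gave no adjusted p over this interval or from P14 to P30, and so no verdict.

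Between cell types, at 4-fold and adjusted p under 0.01, 3 of 6 genes differed between the SGN mean and HCs (Fxyd6 and Fxyd7 higher, Atp1b2 lower in SGNs), where 26.8% of 17531 genes did. Between the SGN mean and glia 3 of 6 differed (Atp1b1 higher, Atp1b3 and Fxyd6 lower in SGNs), against 24.7%, and between P8 SGNs and P8 glia 3 of 6 (Atp1b1 and Fxyd7 higher, Atp1b3 lower), against 20.9%. HCs and glia differed in 2 of 6 (Atp1b3 and Fxyd6, lower in HCs), against 24.4%. Comparisons of SGNs and of HCs with glia share the glial libraries.

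**Figure D4:**
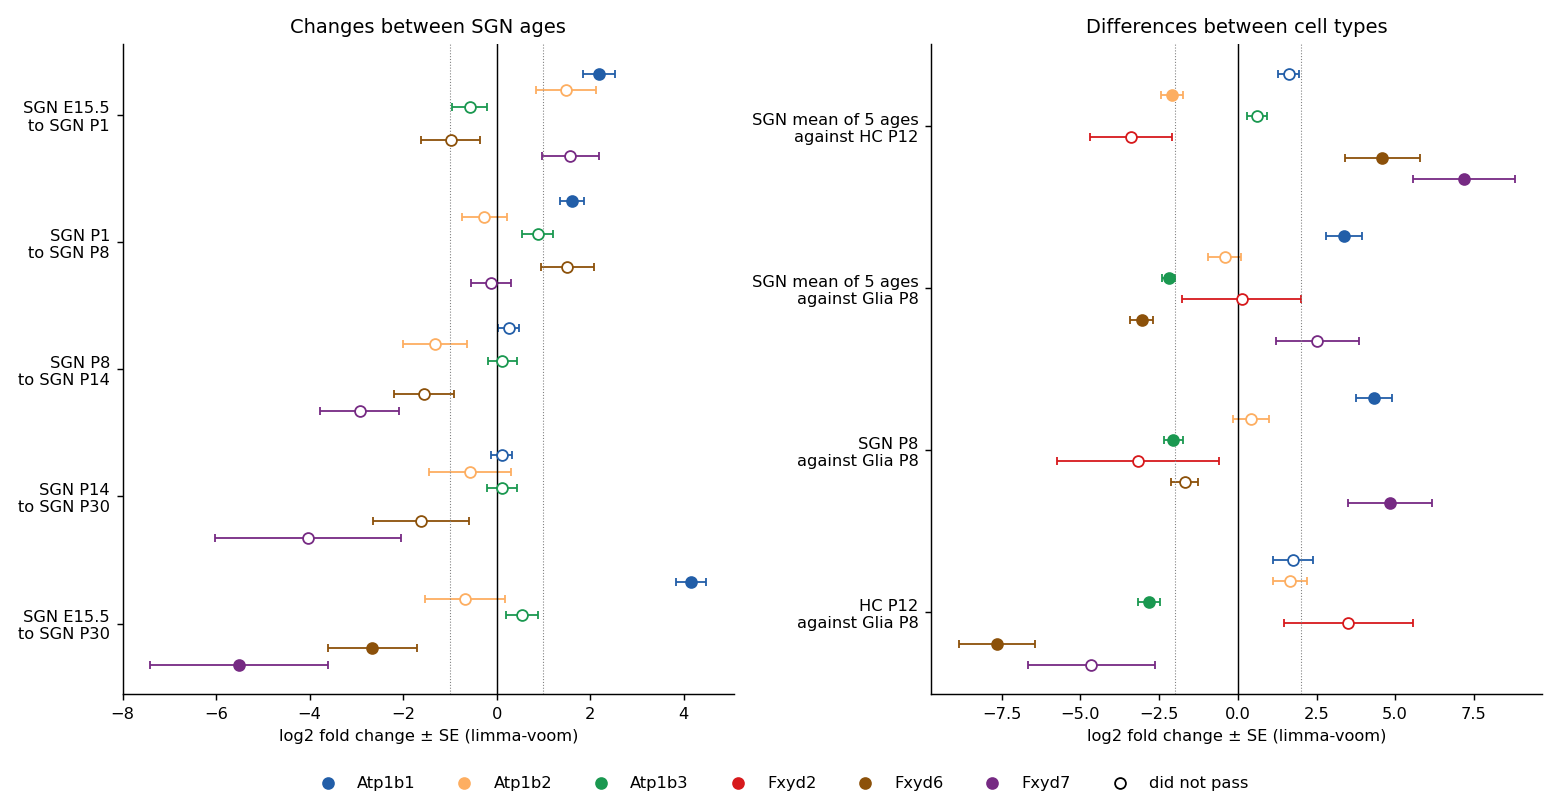
Log2 fold change with its standard error for each gene in the 5 comparisons of SGN ages (left, change from the first to the second age) and the 4 of cell types (right, first-named minus second-named), from limma-voom, with filled circles for calls and dotted lines at the 2-fold or 4-fold limit. Atp1b1 is called in 3 of the age comparisons, while the longest error bars are those of Fxyd2 and Fxyd7, genes with libraries at or near 0.

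The remaining beta and FXYD genes were low in SGNs. Atp1b4, a beta family gene of muscle, did not exceed 0.811 TPM in any of the 21 libraries, and Fxyd5 did not exceed 1.72 TPM. Fxyd1, also called phospholemman, was at 29.1, 32.6 and 10.5 TPM in glia and at most 10.2 TPM in SGNs, the latter in replicate 1 at P8. It was lower in the SGN mean than in glia by a log2 fold change of -4.87 ± 0.61 (adjusted p = 1.58e-06, limma-voom). Fxyd3 was likewise lower in the SGN mean than in glia (-4.63 ± 0.76, adjusted p = 4.04e-05, limma-voom). Its gene overlaps an exon of Lgi4, which lies on the opposite strand. Fxyd4, another kidney member, was at 12.3, 14.1 and 11.8 TPM in HCs and at most 2.95 TPM in SGNs, and was lower in the SGN mean than in HCs (-2.75 ± 0.67, adjusted p = 0.00165, limma-voom). In glia Fxyd4 was at 1.92 to 7.86 TPM, and the SGN mean passed as lower there too. None of the 3 tested genes passed between any pair of SGN ages compared. At unadjusted p under 0.05 (limma-voom) there were 2 such changes, both from P1 to P8: Fxyd1 (2.18 ± 1.02) and Fxyd3 (4.52 ± 1.505). The share of all genes at this threshold was not computed. Over the same interval the glial markers had a median log2 fold change of 3.07, and their part in these changes was not tested.

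A further list held 4 NKAIN genes, whose proteins interact with the beta subunit, and 3 subunit genes of the related hydrogen-potassium pumps (Atp4a, Atp4b and Atp12a). Of these 7 genes 4 were tested. From E15.5 to P30, 3 fell and none rose, where 16.2% of all genes fell and 18.4% rose, led by Nkain4 (-5.13 ± 1.78, adjusted p = 0.0298, limma-voom) and Nkain1 (-4.37 ± 0.85, adjusted p = 0.000684, limma-voom). Nkain1 had a mean of 10.8 TPM at E15.5, 16.5 TPM at P1, 1.38 TPM at P8 and 0.439 TPM at P30. From P1 to P8 it fell by 3.40 ± 0.64 on the log2 scale (adjusted p = 0.00255, limma-voom), and Atp4a fell by 5.76 ± 1.64 on the same scale from a mean of 0.992 TPM (adjusted p = 0.0316, limma-voom). Over all genes 3.15% fell in this interval. None of the list passed from E15.5 to P1, P8 to P14 or P14 to P30. Nkain1 was higher in the SGN mean than in HCs (5.03 ± 0.85, adjusted p = 3.90e-05, limma-voom) and glia (4.59 ± 0.86, adjusted p = 0.000155, limma-voom). Nkain4 was lower than in glia in the SGN mean (-5.18 ± 0.94, adjusted p = 0.000117, limma-voom), in P8 SGNs (-5.50 ± 1.55, adjusted p = 0.00711, limma-voom) and in HCs (-7.43 ± 1.68, adjusted p = 0.00124, limma-voom). In glia it ranged from 3.19 to 69.0 TPM.

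The last list held 27 genes of calcium pumps and of exchangers that use or oppose the sodium gradient. From E15.5 to P30, 10 of the 25 tested rose and 3 fell, beside 18.4% and 16.2% of all genes, with a median log2 fold change of 0.83 against -0.01 over all genes. The largest rises were of the sodium-hydrogen exchanger Slc9a2 (5.08 ± 0.98, adjusted p = 0.000646, limma-voom) and the potassium-dependent sodium-calcium exchanger Slc24a2 (4.92 ± 0.31, adjusted p = 1.04e-08, limma-voom). Slc24a2 went from a mean of 9.03 TPM at E15.5 to 266 TPM at P30. Slc9a2 went from a mean of 0.137 TPM, at 2 to 23 counts per library, to 3.33 TPM. The largest falls were of the sodium-calcium exchanger Slc8a2 (-2.21 ± 0.56, adjusted p = 0.00524, limma-voom) and of Slc9a9 (-1.19 ± 0.31, adjusted p = 0.00632, limma-voom). From E15.5 to P1, 2 of 25 rose and none fell, a share near the 8.26% of all genes called: Slc9a7 (2.26 ± 0.54, adjusted p = 0.0134, limma-voom) and the plasma membrane calcium pump Atp2b2 (1.45 ± 0.16, adjusted p = 5.30e-05, limma-voom). Between P1 and P8, 4 rose and 2 fell, beside 4.29% and 3.15% of all genes, among them Slc9a3 (4.61 ± 0.79), Slc24a2 (2.53 ± 0.27), Slc8a2 (-1.51 ± 0.38) and Slc24a3 (-1.33 ± 0.39). None passed from P8 to P14 or from P14 to P30.

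In cell type comparisons of the same list, 26 genes were tested. Against HCs, 4 were higher and 3 lower in the SGN mean, together a share near the 26.8% of all genes called, led by Slc4a10 (8.55 ± 1.24) and Slc9a5 (6.88 ± 1.19) on 1 side and by the endoplasmic reticulum calcium pump Atp2a3 (-4.63 ± 0.52) and Slc8a2 (-2.67 ± 0.27) on the other. HC libraries had at most 2 counts of Slc4a10 and at most 3 of Slc9a5, so these sizes are set against the floor. Against glia, 10 were higher and 2 lower, beside 14.3% and 10.4% of all genes, led by Slc8a1 (4.91 ± 0.89), Atp2b3 (4.89 ± 0.70), Slc9a3 (-2.98 ± 0.49) and Slc8b1 (-2.72 ± 0.55). P8 SGNs against P8 glia, where 13.4% of all genes were higher and 7.53% lower, gave 10 higher, led by Atp2b3 (5.41 ± 0.71) and Slc24a2 (5.38 ± 0.71), and 1 lower, Slc8b1 (-3.28 ± 0.80). HCs against glia, where 16.2% of all genes were higher and 8.18% lower, gave 9 higher, led by Atp2b4 (5.57 ± 1.19) and Slc8a1 (5.02 ± 0.93), and 1 lower, Slc9a3 (-5.45 ± 1.08).

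As a description of likeness, Pearson's r of log2 CPM over the 21 libraries was computed between each of the 6 genes and 13039 others. The libraries share groups, so a high r mostly says that group means ran together. Atp1b1 was closest to Mdh1 (r = 0.977), Kcnh2 (0.974) and Syt2 (0.973), and within the 15 SGN libraries these were 0.973, 0.966 and 0.978. Mdh1 encodes cytosolic malate dehydrogenase, Kcnh2 an ERG potassium channel and Syt2 a calcium sensor of vesicle release. Atp1b2 was closest to Gm29483 (0.893), Smoc1 (0.880) and Chst5 (0.862), and Atp1b3 to Dbi (0.911), Pcna (0.9002) and Tln1 (0.894). The latter 3 were 0.645, 0.562 and 0.686 within SGNs. Fxyd2 was closest to Map7 (0.830), Skor2 (0.762) and Myo1d (0.746), Fxyd6 to Sema5a (0.929), Ogn (0.903) and Lrp4 (0.897), and Fxyd7 to Gm9844 (0.912), Tmem176b (0.888) and Tmsb10 (0.868). Among the 6 genes themselves, the highest r within SGNs was 0.80 for Fxyd6 and Fxyd7, which was 0.60 over all 21 libraries. Atp1b1 had an r of at most 0.452 with each of the other 5 in SGNs.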

How the data were processed

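The data are RNA-Seq counts of 21 libraries. Per the labels and the study's methods, the authors amplified RNA of picked or sorted cells (Ovation RNA-Seq System V2), aligned reads to mm10 with STAR 2.4.0i and deposited raw counts per gene from featureCounts with the gene length. The HC cells are described as hand-sorted in the labels and as FACS-sorted in the methods. Over the libraries, a median of 67.9% of counts from 1 to 20 were even numbers. Whether each mate of a pair was counted was not tested. If so, intervals from counts would be too narrow.

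From the counts, TPM was computed with the deposited lengths. Tests used limma 3.58.1 (voom) with TMM factors of edgeR 4.0.16, group means and Benjamini-Hochberg adjustment over all genes with CPM above 1 in all replicates of at least 1 group (15113 genes in 15 SGN libraries for ages, 17531 in 21 libraries for cell types). Calls needed 2-fold and adjusted p under 0.05 between ages, and 4-fold and 0.01 between cell types. The script was tested on simulated counts. DESeq2 1.42.0 and edgeR's quasi-likelihood test were alternatives, beside scaling, filters, sample quality weights, a replicate block, fits of the compared groups alone and each library left out. Leaving out replicate 1 of P8, P14 and P30 SGNs together was added after the data were seen.

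Deviations from group means correlated between same-numbered libraries by over 0.1 in all 3 pairs only for P14 and P30 (r = 0.393, 0.244 and 0.104, over genes). For the replicate 1 libraries, r was also 0.371 between P1 and P8 and 0.337 between P8 and P14.

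Named genes were the 6 genes, the other beta and FXYD genes, up to 2 called genes per direction, comparison and list, and the 3 genes most alike to each of the 6 over the 21 libraries, among those with a mean of at least 10 CPM in a group (log2 CPM with a prior count of 2). The genes and lists were chosen with earlier results of these data known. Positions are from GENCODE on GRCm38 and promoters from RefSeq. Python 3.11.15 and R 4.3.3 were used.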

Additional observations from a re-analysis of the deposited data

How the results depend on the processing

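Over 49 log2 fold changes of the 6 genes, 493 of 532 values under alternative settings and 404 of 438 values without 1 library kept their direction and their side of the threshold. The number of the 6 genes called from E15.5 to P1 was 0 without the filter and 2 without replicate 1 of P8, P14 and P30 SGNs, and 1 to 2 with each library left out. From P1 to P8 it was 2 with the replicate block, and from P8 to P14 it was 1 with sample quality weights and in the fit of the compared groups alone. From E15.5 to P30 it was 1 with edgeR, with DESeq2 and in the fit of the compared groups alone, and 1 to 3 without 1 library. It was 1 to 4 without 1 library for the SGN mean against HCs, and for P8 SGNs against glia it was 1 without the filter and 1 to 4 without 1 library. For HCs against glia it was 4 with library size as the only scaling, under which Atp1b1 (2.25) and Atp1b2 (2.15) also passed. The cause was not tested.

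These log2 fold changes changed sign, and none of them was a call. Between P1 and P8, Atp1b2 was 0.0023 with the replicate block and -0.89 to 0.096 without 1 library, and Fxyd7 was -0.27 to 0.068. From P14 to P30, Atp1b1 was -0.082 without replicate 1 of the 3 later ages and -0.092 to 0.38 without 1 library, Atp1b2 was -1.59 to 0.33, and Fxyd7 was 0.51 with edgeR and 0.50 with DESeq2. From E15.5 to P30, Atp1b3 was -0.028 to 0.86 without 1 library. Against glia, Fxyd2 in the SGN mean was -1.85 with edgeR, -2.07 with DESeq2, -0.026 with sample quality weights, -1.13 without replicate 1 of the later ages and -1.94 to 2.64 without 1 library. Fxyd2 in HCs was -0.11 with edgeR and -0.067 with DESeq2. Atp1b2 in P8 SGNs against glia was -0.20 without replicate 1 of the later ages, and -0.20 to 0.80 without 1 library.

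Only P14 and P30 met the rule of an r over 0.1 in all 3 same-numbered pairs, and there the replicate block left the count of calls at 0. Elsewhere the block changed 3 calls: Fxyd6 from P1 to P8 (1.69, adjusted p = 0.0112, limma-voom), Fxyd7 from E15.5 to P30 (-3.71, adjusted p = 0.101, limma-voom) and Atp1b2 against HCs. Library size as the only scaling shifted the median of all genes by -0.48 from E15.5 to P30, by -0.55 for the SGN mean against HCs and by 0.49 for HCs against glia. With 3 libraries per group, of few cells each, values near 0 such as those of Fxyd2 and Fxyd7 depend on single libraries, and depth limits them to the floor of 3 counts.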
